A study of Homo sapiens with 6 samples.

Results

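The proteasome subunit genes were the 48 genes, of 20046 protein-coding genes in GENCODE release 44, whose symbols run from PSMA to PSMG followed by a number. No measured value entered this choice. A cluster, which is a stretch of genome with overlapping crosslinked reads, was counted for a gene where it shared at least 1 nt and the strand with an exon of that gene. The data were infrared PAR-CLIP (photoactivatable ribonucleoside-enhanced crosslinking and immunoprecipitation) clusters of IGF2BP3, an mRNA-binding protein of the IGF2BP family, from HCT116 Tet-OsTIR1-PURO cells, which derive from the human colorectal carcinoma line HCT116. All cells received 100 µM 4-thiouridine (4sU) for 15 h and UV light at 365 nm. Reverse transcription turns a crosslinked 4sU into a T-to-C conversion, which marks RNA that touched the protein. The endogenous protein was precipitated in 5 libraries that differed in the RNase. Concentrations in U/µL are written as in-lysate/on-beads: RNase I at 0.05/0.05, 0.1/0.025 or 0.05/0.025, and RNase T1 at 1/1 or 0.25/0.25. Control IgG was used in 1 further library, with RNase I at 0.1/0.025. Each condition had 1 library, so no difference between libraries has a replicate check. The intervals given are 95% intervals that cover counting error only.

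Several features of the libraries limit how their values can be read. By the study's own account, the antibody against IGF2BP3 also bound its paralog IGF2BP2 to some extent. Electroelution was used to recover the RNA for RNase I 0.05/0.05 and for RNase T1 1/1, whereas the other IGF2BP3 libraries were made from crushed gel pieces, so extraction and RNase concentration cannot be told apart. No RNA abundance was measured here, so binding and the amount of a transcript cannot be told apart. The 5 IGF2BP3 libraries held 2362467, 803490, 670712, 1157194 and 182448 cluster reads in the order given above, and the IgG library held 324 in 25 clusters. Of 6 epithelial markers, 4, 4, 5, 3 and 2 were called targets by the criterion given below, against 21.9, 21.3, 22, 19.6 and 13.7% of all protein-coding genes. EPCAM was called in each IGF2BP3 library, with 122, 40, 46, 38 and 5 reads, whereas CDH1 was called in 1 and KRT8, KRT18, KRT19 and CLDN4 had 0 reads with RNase T1 0.25/0.25. A further 6 markers of other cell types, among them PTPRC, HBB and ALB, had no cluster in any library.

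The proteasome degrades proteins tagged with ubiquitin. Its core particle is a barrel of stacked rings, with α subunits in the outer rings and β subunits, some of them proteolytic, in the inner rings. A regulatory particle caps the barrel, and its ATPase ring and non-ATPase subunits bind, deubiquitinate and unfold the substrate. Alternative activators, an inhibitor and assembly chaperones complete the family. Its genes are expressed in essentially all cells, except for a few interferon-inducible or tissue-specific forms. IGF2BP3 binds mostly in 3′UTRs, and motifs with a CA core are described for the IGF2BP family.

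Sequences at clusters of RNase T1 1/1, the RNase T1 library with the most cluster reads, are shown for the members with the most reads. The windows below are 30 bases centred on the mode position, which the cluster caller gives for each cluster. Read coverage by base is not in the values used here, so the mode may differ from the peak of reads. The windows come from the gene's top cluster, for the 8 members with the most reads in RNase I 0.05/0.05 among those called in every IGF2BP3 library. They are GRCh38 sequence written 5′ to 3′ on the strand of the gene, and capitals mark any of 4 tetramers with a CA core, which are CATT, its relative CAGT, the similar CATA, and lastly ACAC. All 8 lie in 3′UTRs. Only the source clusters of PSMB5 and PSMD5, with 0.652 and 0.644 conversions per read, pass the target criterion given below. Those of the other members printed had 0.328 to 0.469 conversions per read, and these genes were called with RNase T1 1/1 through other clusters. The position of single conversions is not given by the values used here, so the centre of a window is not a crosslinked base.
PSME3, chr17:42842222-42842251, plus strand: gtatacgccCATAcagacatgcACACACag
PSMD12, chr17:67340498-67340527, minus strand: caataataaaagCAGTatataCATAtttcc
PSMB2, chr1:35602009-35602038, minus strand: taagttctgCATAttgcttatttcacttaa
PSMA4, chr15:78549095-78549124, plus strand: ttgaatactttattgtaacgatgatggtta
PSMB5, chr14:23025992-23026021, minus strand: catcctccatcctatttatagtggaagggc
PSMD7, chr16:74306099-74306128, plus strand: caaaattgctaagtggaatgcatgaattgc
PSMD11, chr17:32482258-32482287, plus strand: tagtcactgttttggttttggcaccatcag
PSMD5, chr9:120816790-120816819, minus strand: atatgCATAaatcaggataccatctCATTa
Windows of PSME3, PSMD12, PSMB2 and PSMD5 hold at least 1 of the 4 tetramers on the transcript strand, and those of PSMA4, PSMB5, PSMD7 and PSMD11 hold none. Across all 171 member clusters of this library, 43.9% of such windows (36.6 to 51.4%, Wilson) held any of the 4, compared with 50.7% over 49035 clusters on exons of all protein-coding genes. The same share was 44.2% of member windows and 40.3% of all windows with RNase I 0.05/0.05. The mode was the first or last base of the cluster for 53.8 to 62.2% of member clusters in the 5 libraries, so that many windows reach outside the cluster, as do those printed for PSME3, PSMB2, PSMA4, PSMD7 and PSMD5.

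Clusters in coding sequence were rarer, and the short RNase T1 clusters place them most narrowly. Coding clusters of PSMD14 and PSME4, from 2 of the 3 coding sites present in every IGF2BP3 library, and of PSMC1, whose call is uncertain, are given whole. The third such site, in PSMD8, had longer RNase T1 clusters, of 42 and 55 nt, and is described by its reads alone. The printed PSMD14 and PSME4 clusters had 0.364 conversions per read each and did not pass the target criterion given below. The PSME4 cluster, at 9.51 CPM, also missed the CPM part of that criterion.
PSMD14, RNase T1 0.25/0.25, chr2:161391127-161391156, plus strand: aCATTattactcCATTactattaactatcg
PSME4, RNase T1 1/1, chr2:53920948-53920973, minus strand: ttctaccACACttatctaccctacag
PSMC1, RNase T1 0.25/0.25, chr14:90263724-90263751, plus strand: gatCATTgatgacaatcatgccatcgtg
Each of these 3 stretches ends in G, the base after which RNase T1 cuts. In all, 95.9% of member clusters with RNase T1 1/1 and 95.6% with RNase T1 0.25/0.25 ended in G, against 11.6 to 15.9% in the 3 RNase I libraries. Clusters on all protein-coding genes did so in 94.8 and 92.0% with RNase T1 and in 12.1 to 13.3% with RNase I, close to the members.

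A gene was called an IGF2BP3 target, by the study's criterion as it was read here, where at least 1 cluster exceeded 10 CPM (counts per 1000000 cluster reads of the library) and carried over 0.5 T-to-C conversions per read. The methods of the study do not give the denominator of the CPM, and their wording on conversions per read allows more than 1 reading, so both are an interpretation. If conversions were instead counted as a share of all conversion and non-conversion events, 0 members would pass in any library, and the counts of calls below hold for the first reading. With RNase I 0.05/0.05, 21 of the 48 members were called (43.8%, Wilson 30.7 to 57.7%), compared with 21.9% of all protein-coding genes. With RNase I 0.1/0.025, 25 members (52.1%) were called against 21.3% of all genes. With RNase I 0.05/0.025, 29 members (60.4%) were called against 22% of all genes. The RNase T1 libraries gave 19 members (39.6%) against 19.6% at 1/1 and 22 members (45.8%) against 13.7% at 0.25/0.25. In each of the 5 libraries the members' share was above that of all genes. The 48 genes are a whole family and not independent draws. The intervals therefore only describe the shares, and no test of enrichment was run. In all 5 libraries together, 16 members were called (33.3%, 21.7 to 47.5%) against 9.91% of all genes, and in at least 1 library 31 members (64.6%) against 29.5%.

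**Figure D1:**
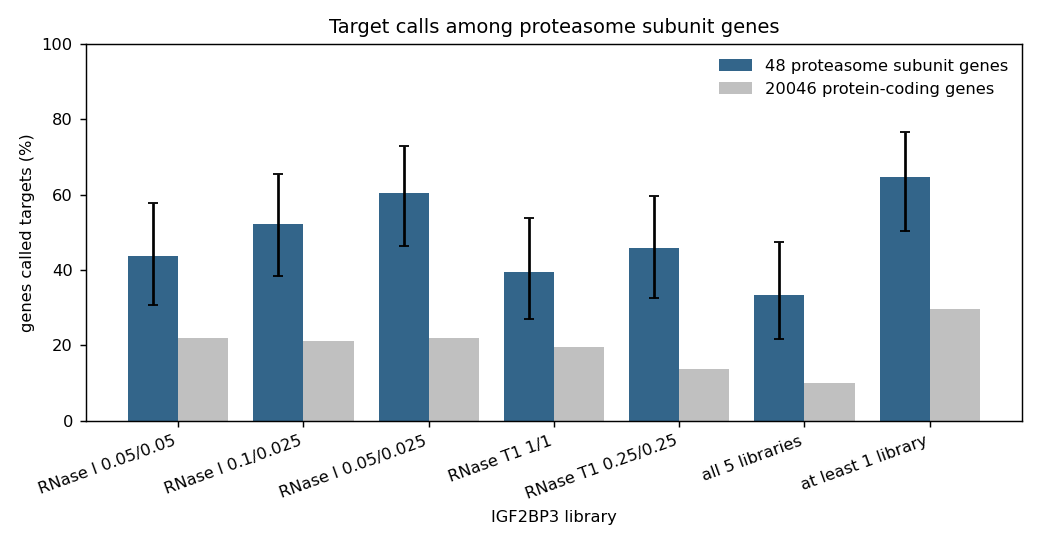
Share of genes called IGF2BP3 targets (%, vertical axis) in each IGF2BP3 library, in all 5 and in at least 1, for the 48 proteasome subunit genes (blue, bars with 95% Wilson intervals) and all 20046 protein-coding genes (grey). The members' share was 39.6 to 60.4% in single libraries and that of all genes 13.7 to 22%.

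Members differed from all genes more in having a cluster than in passing the criterion once they had one. Of the 48 members, 39, 31, 34, 32 and 23 had a cluster in the order of libraries above, or 47.9 to 81.3%, and of all genes 16.7 to 43.7% had one. Among genes with a cluster, 53.8, 80.6, 85.3, 59.4 and 95.7% of members were called in the order of libraries. For all genes with a cluster the shares were 50.1, 66.5, 72.6, 52.2 and 82.0%, below the members in each library. In each library the gap between members and all genes was smaller over genes with a cluster than over all genes. The amount of each transcript was not measured and its part in the calls was not tested.

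The CPM criterion meant a different number of reads in each library. More than 10 CPM was more than 23.6 reads with RNase I 0.05/0.05, more than 8.03 and 6.71 reads in the other RNase I libraries, more than 11.6 with RNase T1 1/1 and more than 1.82 with RNase T1 0.25/0.25. Since the smallest cluster in any IGF2BP3 library had 2 reads, every cluster of the RNase T1 0.25/0.25 library passed the CPM part of the criterion. The summed CPM of the 48 members was 3232 (3161 to 3305, Wilson), 4987, 5233, 3629 and 6183 in the order of libraries.

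In the α ring of the core particle, 7 of 8 genes had clusters in all 5 libraries. Of the 8, 5 were called in all 5 libraries, namely PSMA1, PSMA4, PSMA5, PSMA6 and PSMA7, and PSMA2 and PSMA3 in 4. PSMA8, a testis-specific α subunit, had no cluster in any library. PSMA2 had 165, 74, 93, 102 and 18 reads, and its RNase T1 0.25/0.25 cluster with the most reads had 0.462 conversions per read. PSMA3 had 61, 29, 40, 26 and 7 reads, and its top RNase I 0.05/0.05 cluster, with 21 reads, was under 10 CPM. These misses thus rested on the conversions of 1 gene and the CPM of the other. PSMA4 had 514, 303, 221, 207 and 48 reads in the order of libraries, or 31.1 CPM per kb of exon with RNase I 0.05/0.05. PSMA7 had 160, 88, 84, 148 and 49 reads. Its canonical 3′UTR has 127 nt, and 1 site of 120 nt, chr20:62136729-62136848 on the minus strand, held 85 to 100% of the reads of PSMA7 in every IGF2BP3 library. PSMA1 had 361, 213, 225, 22 and 41 reads and was the α gene with the largest drop between RNase I 0.05/0.05 and RNase T1 1/1.

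PSMA5 and PSMA6, which the study names, had fewer reads. PSMA5 had 135, 58, 93, 50 and 7 reads and PSMA6 had 119, 47, 56, 36 and 19. The top cluster of PSMA5 lay in the 3′UTR in the RNase I libraries and with RNase T1 0.25/0.25, and in coding sequence with RNase T1 1/1 (27 reads at chr1:109409958-109409992, minus strand). Its mode lies 106 nt before the stop codon, and the site around it, chr1:109409926-109410019, had 29, 11, 29, 27 and 0 reads.

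The constitutive β ring was uneven. All 7 genes had a cluster with RNase I 0.05/0.05, but only PSMB2 and PSMB5 were called in all 5 libraries. PSMB5 carries the chymotrypsin-like activity that proteasome inhibitor drugs target, and PSMB2 is a structural β subunit. PSMB5 had 488, 261, 239, 96 and 41 reads and PSMB2 had 520, 388, 306, 511 and 171. Per kb of exon, PSMB5 was the most covered member with RNase I 0.05/0.05, at 133 CPM per kb, and PSMB2 reached 48.6. The order was the opposite with RNase T1 1/1, at 53.6 CPM per kb for PSMB5 and 97.5 for PSMB2.

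The other β genes had few reads or lost them with RNase T1. PSMB4, a structural subunit, had 105, 25 and 29 reads in the RNase I libraries and none in either RNase T1 library. PSMB1, also structural, had 68, 4 and 16 reads with RNase I and none with RNase T1. Both RNase T1 libraries thus lacked clusters on these subunits. PSMB7, which carries the trypsin-like activity, had 100, 33, 42, 8 and 0 reads. PSMB7 was called in 2 libraries and PSMB1 and PSMB4 in 1 each. PSMB6, which carries the caspase-like activity, and PSMB3, a structural subunit, had 20 and 17 reads with RNase I 0.05/0.05 and were called in none.

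The inducible or tissue-specific β forms had no cluster reads at all. PSMB8, PSMB9 and PSMB10 replace the proteolytic subunits in the interferon-induced immunoproteasome, and PSMB11 is the thymus form. None of these 4 genes had a cluster in any of the 6 libraries. A count of 0 allows up to 3 counts per library, and their transcripts were not measured, so it was not tested whether they were present.

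**Figure D2:**
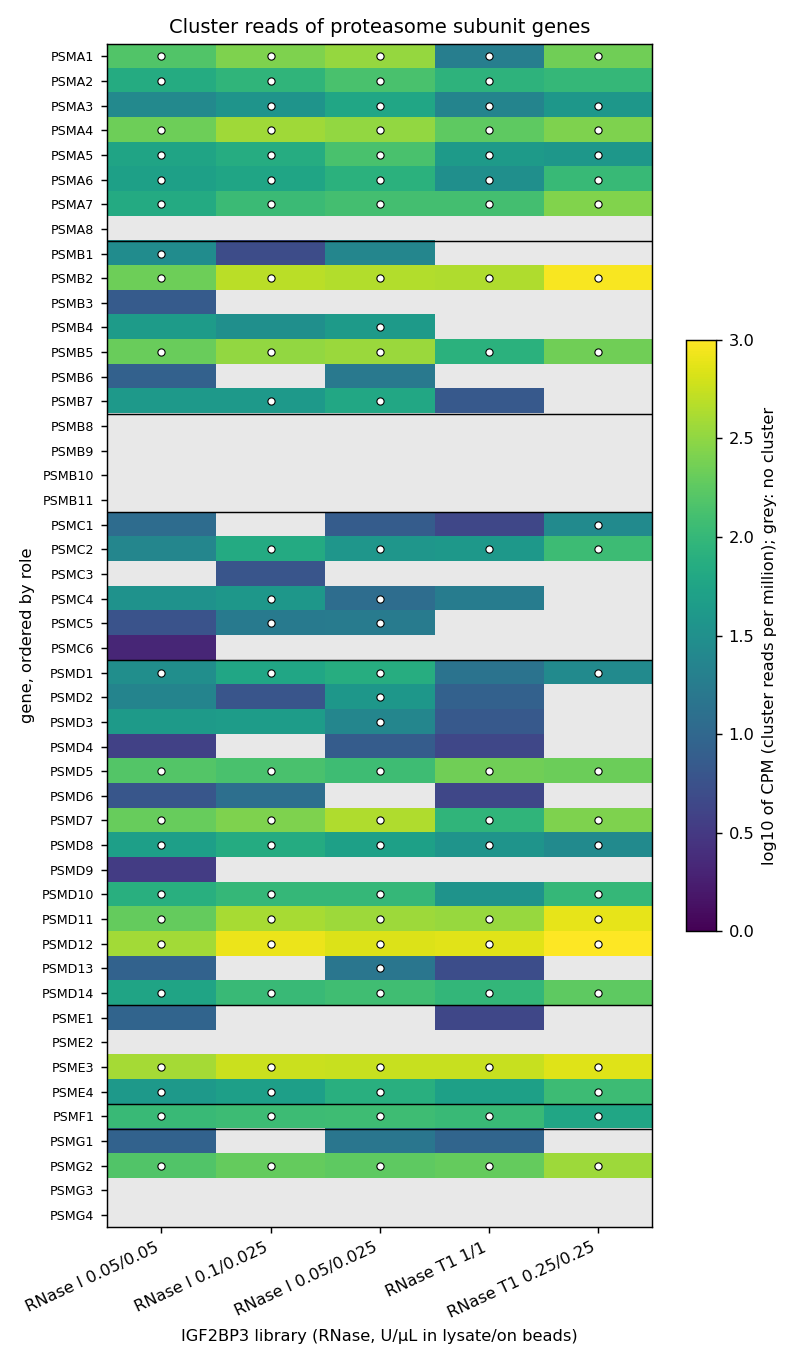
Cluster reads of the 48 proteasome subunit genes (rows, ordered by role, with black lines between roles) in the 5 IGF2BP3 libraries (columns), as log10 of CPM by colour; grey marks genes with no cluster and white dots mark target calls. PSMD12, PSME3, PSMB2 and PSMD11 are bright throughout, and PSMB8 to PSMB11 are grey in every column.

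The ATPase ring had the lowest coverage per kb of exon among the roles with reads. Exon length here joins the exons of all annotated transcripts of a gene, so the order of genes and roles per kb depends on the annotation. Its 6 genes, PSMC1 to PSMC6, encode the ATPases that unfold the substrate and feed it into the core, and none was called in all 5 libraries. PSMC2 was called in 4 libraries, PSMC4 and PSMC5 in 2, PSMC1 in 1, and PSMC3 and PSMC6 in none. Summed over the role, the ATPase genes had 1.98 to 4.55 CPM per kb of exon in the 5 libraries, against 13.7 to 32.4 for the α ring, 35.9 to 78.4 for the constitutive β ring and 14.6 to 30.6 for the non-ATPase subunits. The lowest value of every other role with reads, 5.82 for the inhibitor, also lay above this range. PSMC2 had 56, 55, 25, 46 and 21 reads and PSMC4 had 80, 31, 8, 21 and 0. With RNase I 0.05/0.05 no ATPase gene was called. PSMC2 had a site there without a cluster, chr7:103368085-103368146 on the plus strand, that had 9, 6, 22 and 8 reads in the other 4 libraries. PSMC3 and PSMC6 had 5 reads each, in 1 library.

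The call of PSMC1 could not be tied to PSMC1. Its only passing cluster, the 28-nt RNase T1 0.25/0.25 cluster printed above, had 5 reads. Clusters of the same sequence with 5 reads each were deposited on the pseudogenes PSMC1P1 and PSMC1P9, so these 5 reads may come from any of the 3 loci.

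Among the 14 PSMD genes, the lid subunits PSMD7 and PSMD12 had the most coverage per kb with RNase I, and PSMD12 with RNase T1. PSMD12, a lid scaffold subunit, had 895, 653, 462, 839 and 182 reads, or 70.9 CPM per kb with RNase I 0.05/0.05 and 136 with RNase T1 1/1. PSMD11, another lid subunit, had 466, 322, 247, 399 and 141 reads. PSMD7 and PSMD14 form the deubiquitinating pair of the lid, in which PSMD14 is the active enzyme. PSMD7 had 479, 214, 295, 106 and 48 reads, or 75.1 CPM per kb with RNase I 0.05/0.05, and PSMD14 had 132, 87, 80, 111 and 33. PSMD8, a lid subunit that the study names, had 118, 56, 34, 41 and 5 reads. These 5 genes and PSMD5 were called in all 5 libraries.

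The remaining PSMD genes ranged from frequent calls to none. PSMD5, PSMD9 and PSMD10 are chaperones that assemble the base of the regulatory particle. PSMD5 had 368, 112, 79, 257 and 39 reads, PSMD10 had 184, 81, 67, 40 and 18, and PSMD9 had 8 reads in RNase I 0.05/0.05 only. PSMD10 and PSMD1, a base scaffold, were called in every library but RNase T1 1/1, where the top cluster of PSMD1 had 9 reads, under 10 CPM. PSMD2, the other base scaffold, and the lid subunits PSMD3 and PSMD13 were called only with RNase I 0.05/0.025. The ubiquitin receptor gene PSMD4, the lid gene PSMD6 and PSMD9 were called in none, with at most 15 reads in any library.

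Of the 4 activator genes, PSME3 and PSME4 were covered. PSME3, the nuclear activator also called PA28γ, had 940, 464, 374, 653 and 131 reads and 77.2, 112, 108, 109 and 139 CPM per kb of exon, and was called in all 5. PSME4, the activator PA200, had 99, 40, 52, 58 and 21 reads and was called in every library but RNase T1 1/1. PSME1 and PSME2, which form the interferon-inducible activator, differed from these. PSME1 had 22 and 5 reads in the electroeluted RNase I and RNase T1 libraries and was called in none, and PSME2 had no cluster.

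The inhibitor and the chaperones of core assembly complete the list. PSMF1 encodes the proteasome inhibitor PI31 and had 256, 92, 78, 126 and 11 reads, with calls in all 5 libraries. PSMG2 and PSMG1 encode a chaperone pair that starts assembly of the α ring. PSMG2 had 361, 158, 120, 225 and 67 reads and was called in all 5, whereas PSMG1 had 21, 0, 10, 11 and 0 reads and was called in none. PSMG3 and PSMG4, the second chaperone pair, had no cluster.

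Reads were concentrated on few members. The 5 genes with the most reads, not adjusted for length, held 44, 53.2, 48, 63.3 and 61.3% of the member reads in the order of libraries, and PSMD12, PSME3 and PSMB2 were among these 5 in each. Across the 48 genes, the CPM of any pair of IGF2BP3 libraries correlated with Spearman's rho of 0.859 to 0.956. Over all protein-coding genes the range was 0.672 to 0.898. These correlations are across genes, which are not independent replicates, and all pairs share the genes without reads.

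Other genes of the pathway were called as well. A list of 20 genes that act with the proteasome but carry other symbols had 13, 16, 15, 13 and 10 called genes in the order of libraries. Of all protein-coding genes, 21.9, 21.3, 22, 19.6 and 13.7% were called. In all 5 libraries 9 of the 20 were called, against 9.91% of all genes. Among these 9 were USP14, a deubiquitinase of the regulatory particle, POMP, a core assembly factor, and VCP, an unfoldase upstream of the proteasome. SEM1, a small lid subunit, PAAF1, ECPAS and NGLY1 were called in none.

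Most member reads lay in 3′UTRs. Their share was 86.1% (85.3 to 86.8%, Wilson), 90.2%, 87.9%, 93.8% and 95.7% in the order of libraries, against 80.0, 81.7, 80.2, 86.8 and 86.5% for all protein-coding genes. Counted by clusters, whatever their reads, the 3′UTR share of members was 57.8, 69.8, 67.5, 86.5 and 92.3%, against 71.5, 77.6, 76.2, 82.7 and 86.4% for all genes. With RNase I the members thus lay above all genes by reads and below them by clusters. Nearly all the other reads were in coding sequence, at 13.8, 9.66, 12.1, 6.24 and 4.26%. No member read was assigned to a 5′UTR in any of the 5 libraries, which with RNase I 0.05/0.05 allows a share of up to 0.0393% at 3 counts. A cluster on several features was assigned to the 3′UTR first. With coding sequence first, the 3′UTR share fell to 67.6, 73.1 and 72.5% in the 3 RNase I libraries and was 92.9 and 95.3% with RNase T1, against 67.5, 73.7, 70.9, 84.7 and 83.1% for all genes. Members thus lay above all genes with RNase T1 under both orders, whereas with RNase I their lead by reads was under 2 percentage points or turned once coding sequence came first.

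Clusters across the stop codon, which this choice of order moves, were frequent with RNase I and rare with RNase T1. They held 17.5, 16.4 and 14.6% of the member reads in the RNase I libraries, and 0.572 and 0.443% in the RNase T1 libraries. For all genes the shares were 9.97, 5.77 and 6.89% with RNase I and 0.964 and 1.29% with RNase T1. Members thus had a larger share than all genes with RNase I. With RNase T1 the member values rest on 2 clusters of 24 reads and 1 cluster of 5 reads, too few for a direction. By clusters they were 1.17 and 1.1% of member clusters, against 0.640 and 0.674% for all genes. Member clusters had a median length of 56, 56 and 64 nt with RNase I and of 33 and 39 nt with RNase T1. Reads whose cluster mode lay within 100 nt of the stop codon made up 22.9, 24.5, 17.5, 15.2 and 16.8% for members and 11.1, 10.6, 11.0, 6.47 and 7.93% for all genes.

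The 3′UTRs of the members are short, and members with the longest ones were called most often in all 5 libraries. The canonical 3′UTR had a median of 354.5 nt over members and 1021 nt over all genes. Of the 12 members with at least 1000 nt, 8 were called in all 5 libraries, against 15.7% of all genes of that length. Of the 17 members with 300 to 1000 nt, 4 were called in all 5, and of the 14 with fewer than 150 nt, 1 was, against 5.13% and 1.77% of all genes. The length classes hold few members, so that 1 gene moves a share widely. Of the 5 members with 150 to 300 nt, 3 were called in all 5 libraries, against 3.14% of all genes. Across the 48 members, 3′UTR length and CPM had a Spearman's rho of 0.43, 0.39, 0.38, 0.53 and 0.48 in the order of libraries. Over all protein-coding genes it was 0.33, 0.29, 0.26, 0.38 and 0.24. Both are given as a description across genes.

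Single members stood apart from this relation on both sides. PSMC1 has a canonical 3′UTR of 3025 nt and had 27, 0, 5, 5 and 5 reads, and PSMD9, with 1989 nt, had 8 reads in all. PSMA7, PSMG2 and PSMB5 have 127, 212 and 236 nt and were called in every IGF2BP3 library. In PSMB5, 100% of the 236 nt was covered by clusters in each RNase I library, 78.4% with RNase T1 1/1 and 42.8% with RNase T1 0.25/0.25.

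**Figure D3:**
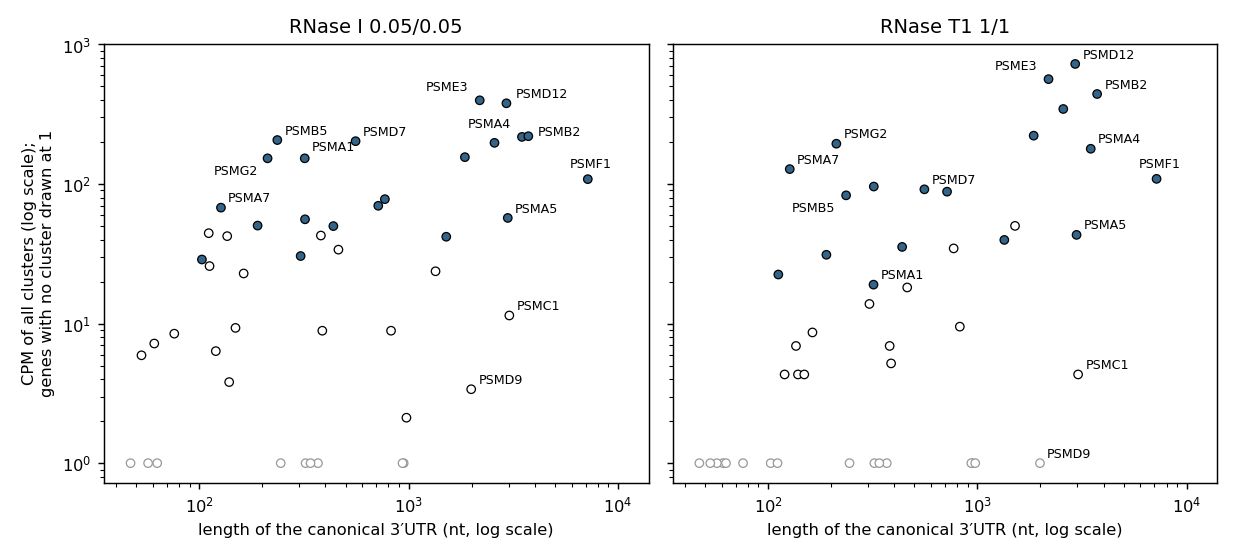
CPM summed over all clusters of each proteasome subunit gene (vertical, log scale, genes with no cluster drawn at 1) against the length of its canonical 3′UTR in nt (horizontal, log scale) with RNase I 0.05/0.05 (left) and RNase T1 1/1 (right); filled points are called targets. Long 3′UTRs carry the highest CPM, with PSMC1 (3025 nt) low and PSMB5 (236 nt) and PSMA7 (127 nt) high for their length.

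RNase T1 1/1 and RNase I 0.05/0.05, both electroeluted, were compared gene by gene. Of the 33 members with at least 20 reads in the RNase I library, 15 had a ratio of CPM (RNase T1 over RNase I) whose exact interval lay below 1, and 9 had one above 1. The median ratio was 0.709 for these members and 0.874 for 6730 protein-coding genes chosen in the same way. This choice favours ratios below 1, since a gene enters through its RNase I reads and may have none with RNase T1. Of the 22 members with at least 20 reads with RNase T1 1/1, a choice made after seeing the data that favours ratios above 1, 9 lay above 1 and 7 below, with a median of 1.1 against 1.12 for all genes. With at least 20 reads over both libraries, also chosen after seeing the data, it was 9 above and 15 below of 34 members, and 30.6 and 37.2% of all genes. The split of members thus moved with the choice of genes.

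Of the 11 members with at least 20 RNase I reads and a canonical 3′UTR of at least 1000 nt, 6 had an interval above 1 and 2 below, and of the 22 with a shorter one 3 lay above and 13 below. Of all genes chosen in the same way, 35.3% of those with the long 3′UTRs lay above 1 and 32.4% below, and 11.9 and 58.6% of the others. The 2 members with long 3′UTRs below 1 were PSMA4, at 0.822 (0.696 to 0.968) with 3476 nt, and PSMC1, at 0.378 (0.114 to 0.996) with 3025 nt. PSMB2 had a ratio of 2.01 (1.77 to 2.27), PSMD12 of 1.91 (1.74 to 2.11) and PSMD11 of 1.75 (1.53 to 2.00), with canonical 3′UTRs of 3729, 2930 and 2570 nt. PSMA7, with 127 nt, was also higher, at 1.89 (1.5 to 2.38). PSME3 was 1.42 times higher (1.28 to 1.57). In the RNase T1 0.25/0.25 library the same ratio was 4.26 for PSMB2, 3.97 for PSMA7 and 2.63 for PSMD12. Over RNase I 0.05/0.025, also from crushed gel, it was 2.05, 2.14 and 1.45. Ratios of this size to RNase I 0.05/0.05 were also seen without a change of enzyme. For RNase I 0.1/0.025 they were 2.19 for PSMB2, 2.15 for PSMD12, 2.03 for PSMD11, 1.62 for PSMA7 and 1.45 for PSME3. For RNase I 0.05/0.025 they were 2.07, 1.82, 1.87, 1.85 and 1.40. The RNase T1 1/1 ratios above 1 of these genes are thus not particular to RNase T1.

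At the other end, PSMA1 had a ratio of 0.124 (0.0770 to 0.191), PSMD3 of 0.162 and PSMB7 of 0.163. PSMB5 and PSMD7 were at 0.402 (0.319 to 0.501) and 0.452 (0.363 to 0.559). In cluster reads, the ratio with RNase T1 1/1 was at most 0.0730 for PSMB4 and at most 0.114 for PSMB1, the upper ends of their exact intervals. Both genes had 0 cluster reads in that library. Reads in no called cluster are not in these values. The 105 RNase I 0.05/0.05 reads of PSMB4 lay at sites of 5 to 32 reads, which may lack a cluster at lower depth. The bounds thus cover counting error of cluster reads alone and do not hold for all reads of a gene. With RNase T1 0.25/0.25, the values of PSMA1, PSMB5 and PSMD7 depended on the RNase I library they were divided by. Over RNase I 0.05/0.05 the ratios were 1.47 (1.04 to 2.03), 1.09 (0.771 to 1.5) and 1.30 (0.944 to 1.75). Over RNase I 0.05/0.025, which like RNase T1 0.25/0.25 was made from crushed gel, they were 0.670 (0.468 to 0.938), 0.631 (0.441 to 0.881) and 0.598 (0.431 to 0.814). Over RNase I 0.1/0.025 they were 0.848 (0.591 to 1.19), 0.692 (0.485 to 0.964) and 0.988 (0.707 to 1.36). PSMB4 and PSMB1 had 0 cluster reads with RNase T1 0.25/0.25 too. The upper ends of the ratio over RNase I 0.05/0.05 at that depth, with the same limit, were 0.463 and 0.722.

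**Figure D4:**
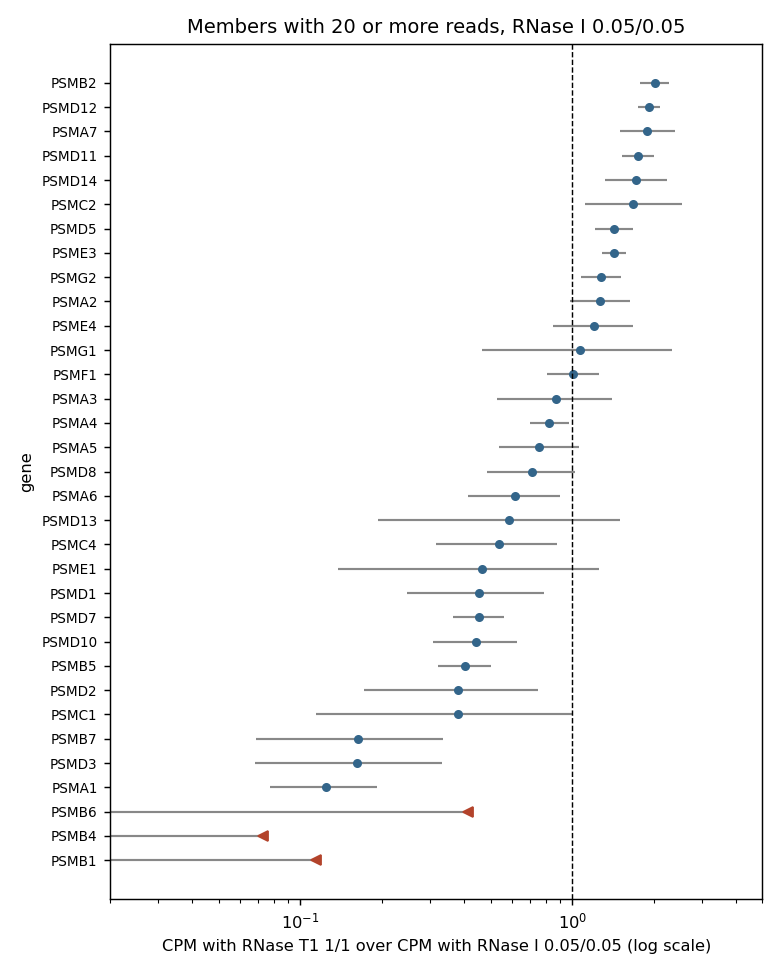
CPM with RNase T1 1/1 divided by CPM with RNase I 0.05/0.05 (horizontal, log scale) for the 33 members with at least 20 reads in the RNase I library; lines are exact 95% intervals of counting error, and red triangles mark the upper bound of genes with 0 cluster reads with RNase T1. The points run from 0.124 for PSMA1 to 2.01 for PSMB2.

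Reads in clusters with any repeated stretch were spread unequally between the enzymes. Clusters holding a 30-nt stretch found elsewhere in the genome had 29.2, 25.3 and 19.8% of the member reads in the RNase I libraries, and 4.57 and 6.47% in the RNase T1 libraries. A longer cluster has more stretches, and RNase I clusters were longer, so these shares cannot separate repeats from cluster length. Clusters with every stretch found elsewhere numbered 6, 2, 5, 7 and 2 in the order of libraries, a count that favours short clusters. The top RNase I 0.05/0.05 clusters of PSMA1, PSMB5 and PSMD7 each held a stretch found elsewhere. In PSMB5 that cluster had 399 reads over 280 nt, and 17 of its 251 stretches of 30 nt occurred elsewhere. With such clusters left out, an alternative chosen after seeing the data, the members called in all 5 libraries went from 16 to 12, losing PSMA1, PSMA6, PSMB5 and PSMD8. How far repeated sequence moved the ratios above was not tested.

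Conversions per read differed between the enzymes. Member reads carried 0.644, 0.678, 0.620, 0.495 and 0.547 conversion events per read in the order of libraries, and reads of all genes 0.638, 0.651, 0.608, 0.511 and 0.551. The top cluster of a member had 0.5 conversions per read or fewer in 3 of 39, 5 of 31 and 3 of 34 genes with RNase I, and in 16 of 32 and 9 of 23 with RNase T1. For all genes with a cluster these shares were 14.4, 17.3, 23.4, 52.2 and 42.0%. PSMD12 shows the effect on the call. Its top RNase T1 1/1 cluster, with 303 reads, had 0.393 conversions per read and did not pass, and the gene was called through 7 other clusters. PSMD10 and PSME4 lost the call with RNase T1 1/1 because their top clusters, with 25 and 47 reads, had 0.480 and 0.468 conversions per read and no other cluster passed.

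Clusters of different libraries on members were merged into 253 sites. Of these, 36 sites on 22 genes were present in all 5 IGF2BP3 libraries and held 78.0% of the member reads, 33 of them in 3′UTRs and 3 in coding sequence. By contrast, 124 sites were seen in 1 library and held 4.21%. Of the member clusters with RNase T1 1/1, 89.5% were overlapped by an RNase I 0.05/0.05 cluster, against 76.9% for all genes. For overlap with RNase T1 0.25/0.25 the shares were 49.1% and 20.5%. Members did not lead in every pair of libraries. For overlap with RNase I 0.05/0.05 the shares were 89.0 and 92.0% of RNase I 0.1/0.025 clusters. They were 89.0 and 93.4% of RNase I 0.05/0.025 clusters, and 95.6 and 97.1% of RNase T1 0.25/0.25 clusters.

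Of the 36 sites present in all 5 IGF2BP3 libraries, 21 had a ratio of CPM between RNase T1 1/1 and RNase I 0.05/0.05 whose exact interval lay above 1 and 7 one below 1, with a median of 1.55. A site enters this set only with a cluster in both RNase T1 libraries, which favours ratios above 1. No value over all genes was computed for such sites, so the split gives no direction for the members. The ratios ran from 0.156 to 7.61. Sites of 1 gene could differ, and PSMF1 holds the highest of the 36. In PSMF1, a site 273 nt after the stop codon at its RNase I 0.05/0.05 mode, chr20:1165285-1165501 on the plus strand, had 88, 36, 22, 31 and 0 reads. A site whose mode lies 2278 nt after the stop codon, chr20:1167352-1167415, had 11, 8, 8, 41 and 6 reads. The ratio of CPM was 0.719 (0.461 to 1.09) at the first and 7.61 (3.84 to 16.4) at the second. The summed CPM of PSMF1 had a ratio of 1.00 (0.805 to 1.25). The total of the gene thus lay level while its sites moved apart. In PSMD12, the main 3′UTR site chr17:67340417-67340775 had 459, 310, 242, 336 and 96 reads and a ratio of 1.49 (1.29 to 1.72), and the distal site chr17:67338029-67338262 had 63, 56, 29, 129 and 37 reads and a ratio of 4.18 (3.07 to 5.74). Other PSMD12 sites lay lower, with ratios of 0.624 (0.409 to 0.929), 0.696 (0.360 to 1.27) and 0.875 (0.444 to 1.64).

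The coding sites present in all 5 libraries were in PSMD14, PSMD8 and PSME4. The PSMD14 site, chr2:161391108-161391164, contains the sequence with 2 CATT printed above and had 9, 9, 8, 31 and 11 reads, with a ratio of 7.03 (3.27 to 16.8). The site of PSMD14 across the stop codon, chr2:161411320-161411496, had 34, 20, 36, 5 and 0 reads and a ratio of 0.3 (0.0917 to 0.772). Within PSMD14, coding reads were thus higher and stop codon reads lower with RNase T1. The PSMD8 coding site, chr19:38382120-38382208, had 16, 16, 6, 23 and 5 reads and a ratio of 2.93 (1.48 to 5.94). It held the only PSMD8 cluster with RNase T1 0.25/0.25, and that cluster passed the criterion. The PSME4 coding site, chr2:53920903-53921022, had 18, 11, 6, 11 and 5 reads and a ratio of 1.25 (0.532 to 2.79), an interval that contains 1.

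**Figure D5:**
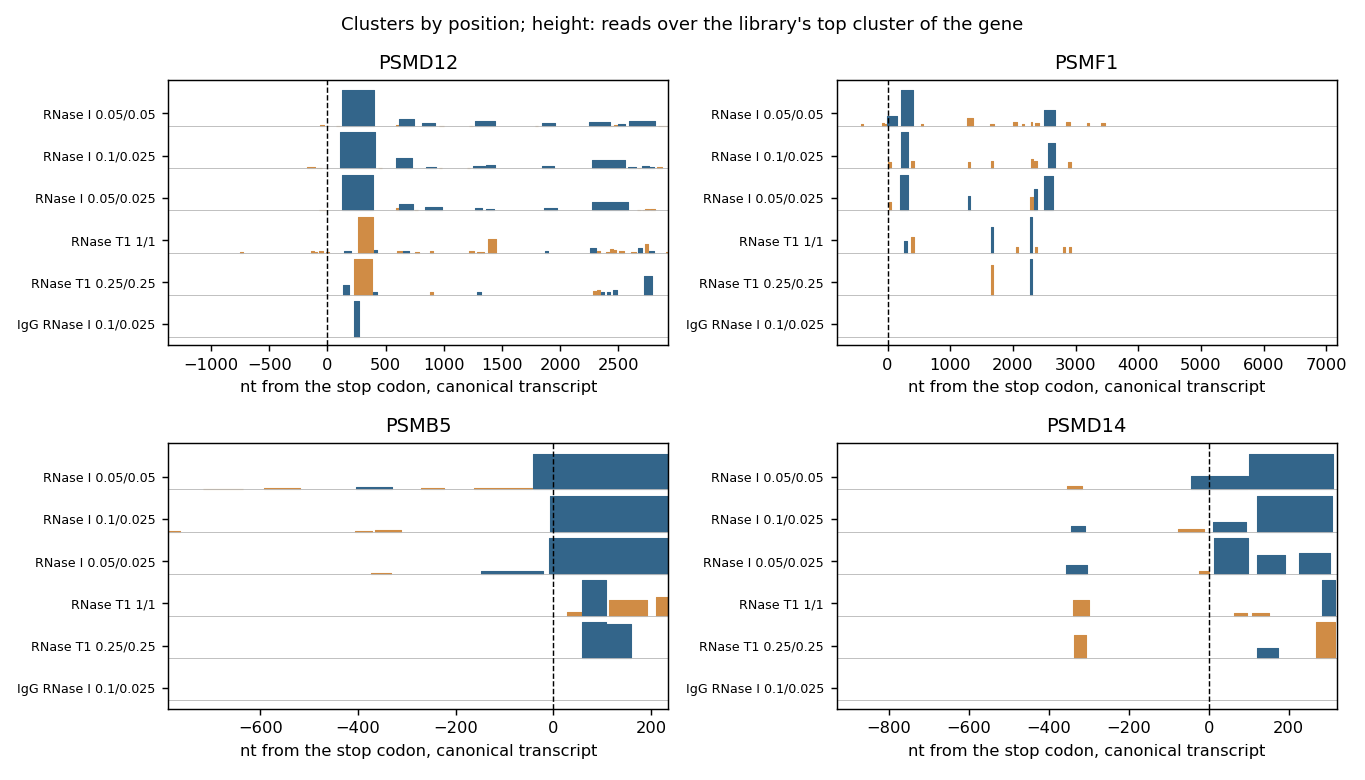
Clusters along PSMD12, PSMF1, PSMB5 and PSMD14 by library, as nt from the stop codon of the canonical transcript (dashed line at 0); height is the reads of a cluster relative to the top cluster of that gene in that library, blue clusters pass the target criterion and orange ones do not. RNase I gave broad clusters over the stop codon of PSMB5, and in PSMF1 the top cluster moved from 273 nt (RNase I 0.05/0.05) to 2278 nt (RNase T1 1/1) after the stop codon.

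The tetramer shares of members and of all genes lay close together. CATT was found in 39.8, 41.9, 41.6, 39.2 and 36.3% of member clusters and in 39.5, 41.6, 41.0, 35.2 and 40% of clusters on all genes. CAGT was found in 31.5, 36.6 and 40.3% of member clusters with RNase I and in 14.6 and 23.1% with RNase T1. The interval of the members' share contained the share of all genes for CATT and CAGT in each library. For CATA it did so in each library but RNase I 0.05/0.025, where 31.2% of member clusters (24.4 to 38.9%) and 23.4% of all clusters held it.

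In the IgG library, PSMD12 was the only member with a cluster. It had 5 of 324 cluster reads (1.54%, 0.661 to 3.56%, Wilson) in 1 cluster of 49 nt at chr17:67340571-67340619, minus strand, with 0.8 conversions per read. The 30 bases around its mode, shown for comparison with the PSMD12 window above, were as follows.
PSMD12, IgG, chr17:67340557-67340586, minus strand: tctatCATTtgaaacctttttagctactgt
This cluster lies inside the top PSMD12 cluster of the IGF2BP3 library of the same RNase setting, which had 310 reads at chr17:67340440-67340735. PSMD12 held 653 of 803490 cluster reads there (0.0813%). A library of 324 reads has no usable CPM, and 9 protein-coding genes in all had an IgG cluster. Whether the PSMD12 reads of the IGF2BP3 libraries include such a background was not tested.

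The annotation leaves some members uncertain. Of the member clusters, 18 of PSMA1, 11 of PSMA6, all 20 of PSMA2 and the 1 of PSMD9 also overlapped exons of a second protein-coding gene annotated across the same locus, and their reads cannot be told apart from its own. Without clusters that overlap another gene, 14 members were called in all 5 libraries.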

How the data were processed

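IR-PAR-CLIP clusters of 5 IGF2BP3 libraries and 1 IgG library from HCT116 Tet-OsTIR1-PURO cells were analysed, with 1 library per condition and no replicate. Per the submitters' processing notes and the methods, the authors used bcl2fastq 2.20.0.422, removed adapters and marked molecules by unique identifiers with UMI-tools 1.1.1, kept reads of 18 to 45 nt with Trimmomatic 0.30, mapped them with Bowtie 0.12.7 to GRCh38.p13 (hg38), and ran the cluster caller PARalyzer on every library by itself. The deposited values are counts per cluster of deduplicated reads, conversion events and non-conversion events, with a mode score that the authors give as a fraction and that was not used here. PARalyzer groups reads around conversions, so RNA without crosslinked 4sU is not in these files, and the total of cluster reads is not the depth of sequencing. GRCh38 held the same bases at the position of each of the 244645 clusters.

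From these counts, reads were summed over clusters with same-strand exon overlap of at least 1 nt with a gene of GENCODE release 44, and CPM was computed over all cluster reads of a library. Values per kb use the joined exons of all annotated transcripts, which can be far longer than the canonical transcript. PSMG2 has 12490 nt of such exons, and its canonical coding sequence and 3′UTR have 792 and 212 nt. Target calls used more than 10 CPM and more than 0.5 conversion events per read in 1 cluster, which is 1 reading of the study’s criterion. The stop codon was counted in the 3′UTR. Shares have 95% Wilson intervals and ratios of CPM exact conditional Poisson intervals, both for counting error only. For a share of 0 reads, 3 counts were used as a bound, and for a ratio with 0 cluster reads the upper end of its exact interval. Ratios were summarized for genes with at least 20 reads in RNase I 0.05/0.05. No test between conditions was run, since each condition had 1 library and libraries of the same enzyme differ in concentration and extraction. Sites are unions of overlapping same-strand clusters of the 5 IGF2BP3 libraries. Tetramers were searched on the transcript strand, where ACAC may overlap itself.

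Every member could be named. Those described with values were the members called in all 5 IGF2BP3 libraries, the 5 with the most reads per kb of exon in RNase I 0.05/0.05 and in RNase T1 1/1, those called in none, those called with only 1 of these libraries, and PSMA5, PSMA6 and PSMD8, which the study names. Values of other members, such as PSMA2, PSMB7 and PSMC4, were added to complete their role and were chosen after they were seen. Members, lists and roles were chosen with earlier results of these data known. Alternatives changed the thresholds, the CPM denominator, the overlap, the feature order and the window. Programs were tested on simulated data and ran on Python 3.11.15 with numpy 2.4.6, pandas 2.3.3, scipy 1.17.1, numba 0.67.0 and matplotlib 3.10.9.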

Additional observations from a re-analysis of the deposited data

Results flagged for a closer look

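Clusters outside the annotated exons of the 48 genes are not part of the comparisons above, and the IgG library had none of the following kinds. Pseudogenes of members carried clusters with 101 reads in RNase I 0.05/0.05, 26 in RNase I 0.1/0.025, 46 in RNase I 0.05/0.025, 48 in RNase T1 1/1 and 10 in RNase T1 0.25/0.25. PSMD8P1 had 20 reads with RNase T1 1/1 against 5 with RNase I 0.05/0.05, and PSMA2P3 had clusters of 22 and 8 reads in RNase I 0.05/0.05. Some of these clusters equal a cluster of the parent gene in sequence and reads, as for PSMC1, PSMC1P1 and PSMC1P9, and reads of identical sequence cannot be told apart by locus.

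Clusters in introns of members, touching no exon of them, held 75 reads in RNase I 0.05/0.05, 5 in RNase I 0.1/0.025, 17 in RNase I 0.05/0.025, 5 in RNase T1 1/1 and none in RNase T1 0.25/0.25. PSMC2 had 54 intron reads in RNase I 0.05/0.05 and 17 in RNase I 0.05/0.025. PSMF1 had 17 in RNase I 0.05/0.05, and PSMB5 had 4, 5 and 5 in RNase I 0.05/0.05, RNase I 0.1/0.025 and RNase T1 1/1.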

How the results depend on the processing

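Of 50 counts of called members per library under another setting, 38 stayed within 1.5 times the reported count. Above 0.75 conversions per read, 9, 15, 17, 7 and 9 members were called in RNase I 0.05/0.05, 0.1/0.025 and 0.05/0.025 and RNase T1 1/1 and 0.25/0.25, an order kept throughout this paragraph. Above 20 CPM, 12 were called with RNase T1 1/1, and with at least 20 reads in place of the CPM, 7 with RNase T1 0.25/0.25. When conversions had to exceed 0.5 of all conversion and non-conversion events, 0 members were called in each library, and 2 of all protein-coding genes with RNase T1 1/1 and 0 in the others. The count of members called in all 5 libraries was 16, and became 7 with at least 20 reads, 1 above 0.75 conversions per read and 0 with the share of events. Without each library in turn it was 16 to 19, and the other alternatives gave 11 to 19. With CPM of reads on protein-coding exons, the summed CPM was 3811, 5896, 6283, 4321 and 7410.2. With clusters on no other gene it was 2961, 4584, 4676 and 3508, and 5952 with RNase T1 0.25/0.25, inside its counting interval. With clusters above 0.5 conversions per read it was 2975, 4607, 4483, 1434.5 and 3141, and with clusters with no 30-nt stretch elsewhere 2289.6, 3727, 4199, 3463 and 5782. The 3′UTR share with coding sequence first was 67.6, 73.1, 72.5 and 92.9%, by the mode position 74.5, 89.1 and 86.4%, with each cluster counted once 57.8, 69.8, 67.5, 86.5 and 92.3%, and on canonical transcripts 85.1% with RNase I 0.05/0.05. The last of these and the clusters without repeated stretches were chosen after seeing the data. In 30-nt windows, CATT was found in 18.7, 17.4, 11.7, 25.1 and 24.2% of member clusters, CATA in 10.8, 15.7, 12.3, 9.36 and 12.1%, CAGT in 12.7, 11.0 and 22.1% with RNase I, and ACAC in 8.37, 9.30, 11.0 and 9.94% in all but RNase T1 0.25/0.25. The shorter window holds fewer tetramers by construction. The cause of the other moves was not tested. No paired analysis was possible because each condition had 1 library and the results come from no test. Few reads per gene limit RNase T1 0.25/0.25 most, where 1128 reads fell on members.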

Other observations

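Clusters on the strand opposite to members, within their span, held 1087 reads in RNase I 0.05/0.05, 197 in RNase I 0.1/0.025, 206 in RNase I 0.05/0.025, 503 in RNase T1 1/1 and 75 in RNase T1 0.25/0.25. They include reads of other genes annotated on that strand.

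Among proteasome partners outside the symbol rule, USP14 had 407, 164, 135, 174 and 43 reads in the same order of libraries, and POMP had 138, 55, 70, 66 and 10.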
